A study of Mus musculus with 8 samples.

Results

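Interferon response genes are the transcripts that cells raise when interferon binds its receptors. A list of 39 such genes was followed in mouse skin, and each was represented by the probe with the highest mean deposited log2 value among the probes whose RefSeq accession names it. Of the 39 listed genes, 37 had a matched probe, all 37 passed the filter on low signal, and they were tested among 14774 named genes. Mx1 and Mx2 had no matched probe and were not analysed here. The 8 samples were total skin RNA of C57BL/6N mice on Agilent single-colour arrays, 1 array per sample. They formed 3 groups: skin with hair loss from Cchcr1 mutants (n = 2), skin labelled normal from Cchcr1 mutants (n = 4), and wild type normal skin (n = 2). The series describes the mutants as made by allele-specific CRISPR/Cas9 editing to model the patchy hair loss of alopecia areata, an autoimmune attack on the hair follicle. The labels give no age, sex or treatment.

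The sample titles carry a number and a letter that the labels do not explain. Mutant097S1 and Mutant113S1 were the hair loss samples. Mutant097B1, Mutant097A1, Mutant113B1 and Mutant113A1 were the normal skin of mutants, and Wild001B1 and Wild001A1 were the wild type. Values below follow this order within each group. Each value is the log2 signal of a probe relative to the 75th percentile of its array, so that 0 stands for that percentile, and a log2 difference of 1 is a doubling of the signal. Probes of different genes are not compared by level. Nothing in the labels says that the samples of a group came from separate animals, so the tests measure the spread between these samples, which may be technical.

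Type I and type III interferons are made by cells that detect viral or misplaced nucleic acid, and type II interferon (interferon gamma) mainly by T cells and NK cells. Receptor-bound Janus kinases then pass the signal to transcription factors. Their DNA elements in target promoters are the interferon-stimulated response element (ISRE), bound by a complex that holds STAT2 and IRF9, and the gamma-activated site (GAS). In the hair follicle, interferon gamma signalling is known for its link to the loss of immune privilege in alopecia areata.

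The promoters of the listed genes are shown because they carry the letters of these elements, which the choice of the genes did not use. RefSeq promoters (build GRCm38.p6, 250 bases before to 50 bases after a start site) were matched by symbol for 30 of the 39 genes. The ISRE core was searched as GAAANNGAAA and its reverse complement TTTCNNTTTC, and the GAS core as TTCNNNGAA, which reads the same on both strands, with overlapping matches allowed. At least 1 ISRE core lay in the promoters of 16 of the 30 genes (53.3%), against 3.99% of 27025 genes with a promoter and 3.44% of all 32851 promoters. At least 1 GAS core lay in those of 9 of the 30 (30.0%), against 9.55% of genes and 8.30% of promoters. Both cores were found for 4 of the genes and neither for 9. A match describes the letters and does not show that a factor binds there. The stretches below end before the start site, are written 5′ to 3′ on the strand of the gene, and have the letters of the ISRE or GAS cores in capitals. The first 6 hold ISRE cores, Igtp holds a GAS core beside it, and Irf1 and Irf8 hold GAS cores alone.
Ifit1, chr19:34640745-34640853, plus strand: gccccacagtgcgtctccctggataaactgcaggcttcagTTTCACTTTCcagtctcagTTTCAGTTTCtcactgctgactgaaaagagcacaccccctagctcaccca
Isg15, chr4:156200835-156200936, minus strand: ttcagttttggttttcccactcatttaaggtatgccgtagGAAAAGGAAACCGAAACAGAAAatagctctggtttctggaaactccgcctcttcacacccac
Oas1a, chr5:120907526-120907585, minus strand: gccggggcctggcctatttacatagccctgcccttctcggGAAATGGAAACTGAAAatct
Stat2, chr10:128270248-128270325, plus strand: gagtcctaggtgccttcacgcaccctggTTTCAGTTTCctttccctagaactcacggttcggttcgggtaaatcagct
Gbp2, chr3:142620564-142620653, plus strand: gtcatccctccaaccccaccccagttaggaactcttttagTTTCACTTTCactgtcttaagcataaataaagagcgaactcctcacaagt
Igtp, chr11:58199482-58199555, plus strand: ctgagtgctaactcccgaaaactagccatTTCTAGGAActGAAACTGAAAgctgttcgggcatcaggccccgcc
Irf1, chr11:53769884-53769972, plus strand: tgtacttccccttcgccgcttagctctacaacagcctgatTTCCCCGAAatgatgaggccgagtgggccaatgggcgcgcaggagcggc
Irf8, chr8:120736147-120736253, plus strand: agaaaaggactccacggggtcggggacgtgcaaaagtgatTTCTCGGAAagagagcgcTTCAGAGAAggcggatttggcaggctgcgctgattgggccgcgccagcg
The first ISRE core began 104 bases before the start site in Ifit1, 78 in Isg15, 59 in Gbp2 and 20 in Oas1a. Oas1a also held a GAS core, at -98 relative to its start site and outside the stretch shown. The GAS core of Irf1 began 90 bases before its start site, and the first of the 2 in Irf8 began 171 bases before. The promoter of Ifitm1, the only listed gene called below with the main processing, held neither core in this window.

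At the 75th percentile, the processed intensity lay between 83.2 and 212 on the 8 arrays, and 0 spots were saturated. The keratinocyte keratins were well above background on all 8 arrays, so the epidermal markers of the labelled tissue were present. Krt5 lay between 8.79 and 9.23 and Krt10 between 7.56 and 8.12. Krt14 (5.76 to 8.06) and Krt1 (4.83 to 6.56) varied more. Their means were 7.73 and 6.12 in hair loss skin, 6.88 and 5.17 in mutant normal skin, against 6.075 and 5.18 in wild type. Hair matrix keratins separated the genotypes: the summed level of Krt71, Krt27, Krt25 and Krt35, as a multiple of the 75th percentile of the array, was 353 to 1238 in mutant normal skin, 856 to 1834 in hair loss skin and 0.49 to 2.98 in wild type skin. Xist was well above background on the 3 Mutant113 arrays and on no other, and the Y-linked Ddx3y and Eif2s3y on the other 5 arrays only. Genotype, title number, sex-linked expression and, in part, slide row therefore overlap in these samples. Both wild type samples were Wild001, and whenever wild type is compared, genotype and number cannot be told apart.

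The level of the list as a whole differed from array to array. Taking for each gene the deviation from its own mean over the 8 arrays, the median over the 37 genes was -0.52 on Mutant097S1 and 0.38 on Mutant113S1, the 2 hair loss arrays. It was -0.57, 0.02, 0.02 and 0.07 in mutant normal skin, against 0.03 and 0.52 in wild type skin. The hair loss arrays lay on opposite sides of 0, Mutant097B1 lay below the other 3 mutant normal skin arrays, and Wild001A1 lay above Wild001B1. The same median over all tested probes stayed between -0.02 and 0.04 on every array. Wild001A1 was the highest of the 8 arrays for 23 of the 37 genes, Mutant097B1 the lowest for 18 and Mutant097S1 the lowest for 14. Over all tested probes these arrays were the highest or lowest in 15.0%, 10.4% and 18.9%.

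**Figure D1:**
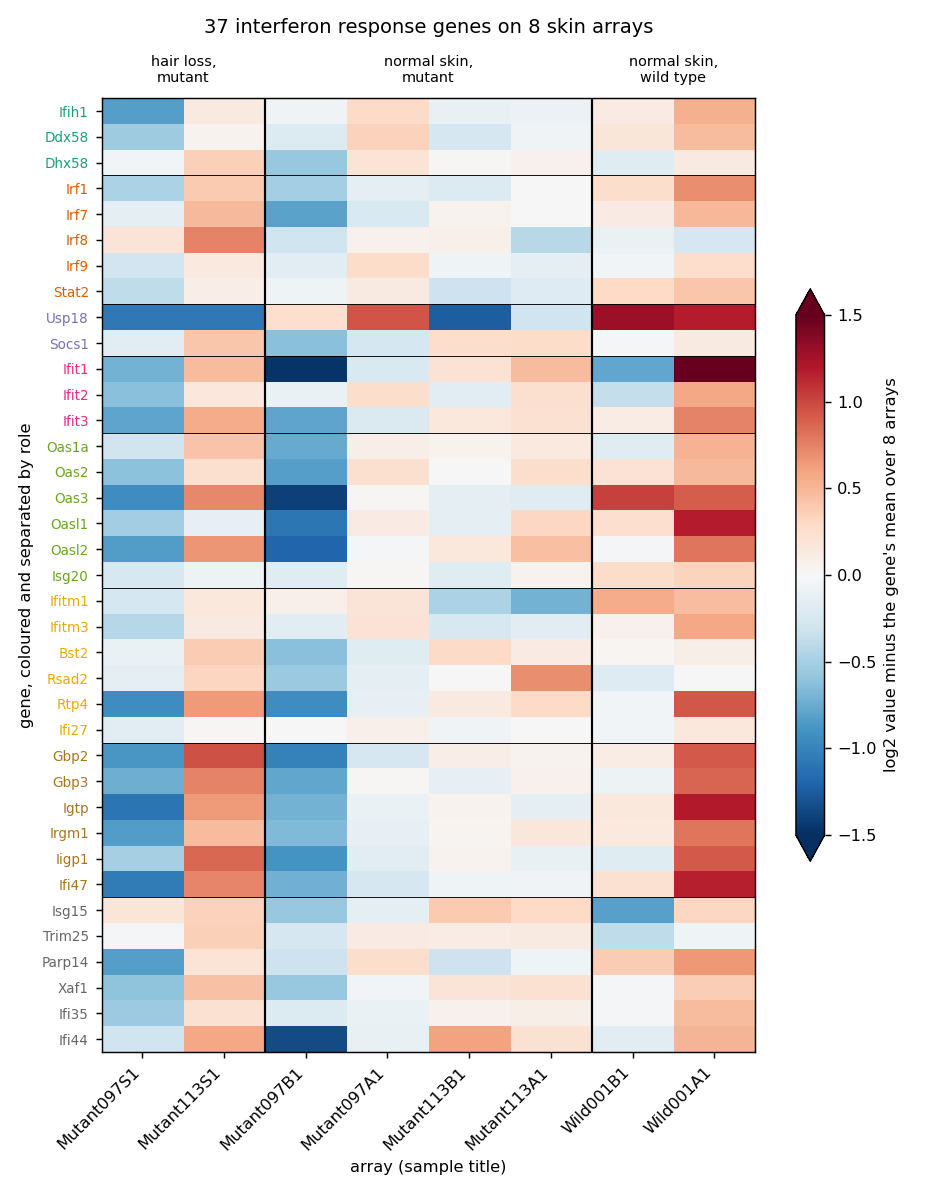
Deviation of each of the 37 interferon response genes from its own mean over 8 arrays (colour, log2; values past 1.5 take the end colour), with arrays in columns by group and genes in rows by role. The Mutant097S1 and Mutant097B1 columns are mostly blue (median deviations -0.52 and -0.57), and the Mutant113S1 and Wild001A1 columns mostly red (0.38 and 0.52).

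No listed gene passed the test between hair loss skin and normal skin of the mutants, at an adjusted p under 0.05, the threshold for a call. The estimate was above 0 for 21 of the 37 genes and below 0 for 16, with a median difference of 0.06 against -0.01 over all 30417 probes tested. Without Mutant097S1 this median was 0.48, and without Mutant113S1 it was -0.34. Limma called 0 of the 37 genes and 0.0% of all probes. Unadjusted p was under 0.05 for 1 gene, Irf8, against 5.2% of all probes. Irf8 was also the 1 gene whose 2 hair loss values lay above all 4 normal skin values, which held for 5.73% of all probes, and 0 genes lay below without overlap, against 6.68%. With the title number as a block among the mutants, the paired comparison gave the same estimates, as its design fixes, with 0 calls against 0.0% of all probes, and 2 genes at an unadjusted p under 0.05 (Irf8 higher, Usp18 lower) against 6.24%.

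Normal skin of the mutants read lower than wild type skin along most of the list, with no single gene called. The estimate was below 0 for 33 of 37 genes and the median difference was -0.44, against -0.04 over all probes. The median GTPase difference was -0.72 (6 of 6 below 0), that of the OAS family and RNase group -0.49 (6 of 6) and that of the transcription factors -0.47 (4 of 5). The genes with an estimate above 0 were Irf8, Rsad2, Isg15 and Trim25. Limma called 0 of the 37 genes against 0.694% of all probes, and the smallest adjusted p on the list was 0.245 (Oas3, whose probe was not well above background on any mutant normal skin array). Unadjusted p was under 0.05 for 5 genes (Ifitm1, Irf1, Isg20, Oas3 and Usp18), all lower, against 17.2% of all probes. All 4 mutant values lay below both wild type values for 11 genes (Irf1, Irf7, Stat2, Usp18, Oas3, Isg20, Ifitm1, Gbp2, Igtp, Ifi47 and Parp14), which held for 14.8% of all probes, and above them for 0 genes, against 13.6%. Without Wild001A1, the array with the highest values, the median over the list was -0.13, and without Wild001B1 it was -0.66.

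**Figure D2:**
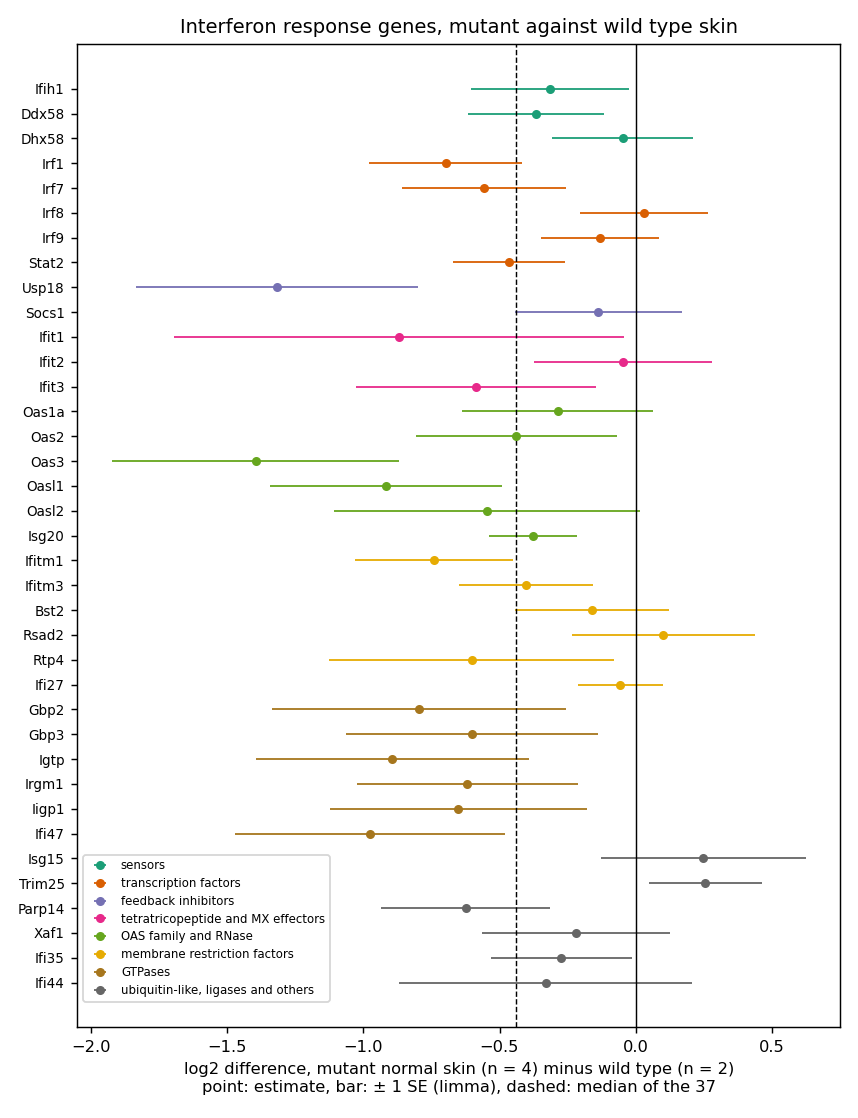
Log2 difference, mutant normal skin (n = 4 arrays) minus wild type (n = 2), for each of 37 genes (points, with bars of 1 standard error from limma), coloured by role. The dashed line marks the median of -0.44; 33 points lie below 0 and none was called.

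Hair loss skin against wild type skin gave a similar median, and it shares its wild type samples with the comparison before. The estimate was below 0 for 30 of 37 genes, the median was -0.47 against -0.06 over all probes, and limma called 0 genes against 1.42% of all probes. There were 3 genes at an unadjusted p under 0.05 (Usp18 and Isg20 lower, Irf8 higher) against 24.8%. Both hair loss values lay below both wild type values for 8 genes (Ddx58, Stat2, Usp18, Oas3, Oasl1, Isg20, Ifitm1 and Parp14), against 28.5% of all probes, and above them for Irf8 and Trim25, 2 genes, against 24.8%. This median rested on Mutant097S1: without that array it was 0.039, and without Mutant113S1 it was -0.78.

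Markers of macrophages and monocytes, fibroblasts and skeletal muscle also had lower estimates in the mutants, and they were not the only ones. Of 7 markers listed, 6 were matched and tested (Lyz2, Adgre1, Csf1r, Cd14, Mrc1 and Itgam). All 6 estimates of mutant normal skin minus wild type were below 0, limma called 0 of them against 0.694% of all probes, 5 had an unadjusted p under 0.05 against 17.2%, and the smallest adjusted p was 0.125. Their summed level, as a multiple of the 75th percentile of each array, was 64.8 to 108 in mutant normal skin, 73.2 to 84.4 in hair loss skin and 138 to 162 in wild type skin, and none of the 6 was below background on all arrays. The fibroblast markers (3 of 4 matched and tested, all 3 estimates below 0) summed to 315 to 829 in mutant normal skin, 417 to 546 in hair loss skin and 755 to 1058 in wild type skin. The 3 skeletal muscle markers (all 3 estimates below 0) summed to 305 to 746, 124 to 383 and 783 to 792 in the same order. Limma called 0 of these 6 in either comparison with wild type, against 0.694% (mutant normal skin) and 1.42% (hair loss skin) of all probes. The T and NK cell list gave 12.6 to 18.3 in mutant normal skin, 13.1 to 15.0 in hair loss skin and 13.9 to 18.9 in wild type. Fewer cells of a type and less RNA per cell cannot be told apart in bulk RNA. The part of these markers, of the hair matrix keratins and of the sex-linked genes in the lower interferon response values was not tested.

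The cytosolic RNA sensors Ifih1 (MDA5), Ddx58 (RIG-I) and Dhx58 (LGP2), helicases that bind double-stranded or end-marked viral RNA, overlapped between hair loss and normal skin of the mutants. Ifih1 was 0.20 and 1.16 in hair loss skin, 0.98, 1.32, 0.91 and 0.94 in mutant normal skin, against 1.15 and 1.56 in wild type. The low value was that of Mutant097S1, and every group overlapped the others. Ddx58 was 0.80 and 1.39 in hair loss skin, 1.13, 1.68, 1.09 and 1.29 in mutant normal skin, against 1.51 and 1.81 in wild type. Both hair loss values lay below both wild type values, and the difference was -0.57 (SE 0.29, adjusted p = 0.265). Dhx58, the regulatory member without signalling domains, was -1.37 and -0.98 in hair loss skin, -1.90, -1.13, -1.31 and -1.27 in mutant normal skin, against -1.51 and -1.20 in wild type, with full overlap.

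Among the transcription factors, Irf8 stood alone in being highest in hair loss skin. Irf8, a factor of the monocyte and dendritic cell lineage, was 1.86 and 2.42 in hair loss skin, 1.38, 1.74, 1.75 and 1.26 in mutant normal skin, against 1.58 and 1.42 in wild type. Both hair loss values lay above the 6 others. The difference was 0.61 (SE 0.23, adjusted p = 0.935) from mutant normal skin and 0.64 (SE 0.27, adjusted p = 0.194) from wild type. The dendritic and Langerhans cell markers, 4 of 5 tested, summed to 5.91 to 9.65 in hair loss skin, 4.74 to 7.80 in mutant normal skin, against 5.30 to 6.20 in wild type, with Xcr1 below background on every array. By group mean, Itgax was higher in hair loss skin than in mutant normal skin (1.91 against 1.02). Cd207 (1.54 against 1.72), Flt3 (-0.36 against -0.23) and Zbtb46 (-4.13 against -4.02) were lower. The part of the dendritic and Langerhans cell markers in the Irf8 values was not tested.

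The remaining factors had their lowest or near-lowest values on Mutant097 arrays. Irf1, an interferon gamma target that turns on antigen presentation genes, was 2.89 and 3.76 in hair loss skin, 2.86, 3.23, 3.16 and 3.37 in mutant normal skin, against 3.64 and 4.06 in wild type. The 4 mutant normal skin values lay below both wild type values, by -0.70 on average (SE 0.28, adjusted p = 0.266), while Mutant113S1 lay between the wild type values. Irf7, the amplifier of type I interferon production, was -2.33 and -1.71 in hair loss skin, -3.00, -2.42, -2.14 and -2.20 in mutant normal skin, against -2.07 and -1.70 in wild type. Mutant normal skin lay below wild type without overlap (difference -0.56, SE 0.30, adjusted p = 0.387). Stat2 and Irf9 are members of the ISRE-binding complex. Stat2 was 1.70 and 2.18 in hair loss skin, 2.02, 2.22, 1.77 and 1.89 in mutant normal skin, against 2.38 and 2.50 in wild type, so that all 6 mutant values lay below both wild type values. The difference of mutant normal skin from wild type was -0.47 (SE 0.21, adjusted p = 0.303). Irf9 overlapped in all groups, at 2.33 and 2.78, then 2.46, 2.90, 2.57 and 2.49, then 2.58 and 2.89.

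The feedback inhibitor Usp18 gave the largest difference on the list. Usp18 removes ISG15 from proteins and blocks the type I interferon receptor. It was 0.18 and 0.18 in hair loss skin, 1.51, 2.20, 0.02 and 0.96 in mutant normal skin, against 2.54 and 2.43 in wild type. All 6 mutant values lay below both wild type values, and the hair loss values lay within the range of mutant normal skin, above Mutant113B1 alone. The difference was -2.30 (SE 0.60, adjusted p = 0.0862) between hair loss and wild type, -1.32 (SE 0.52, adjusted p = 0.257) between mutant normal skin and wild type, and -2.00 (SE 0.39, adjusted p = 0.0637) between Mutant113 normal skin and wild type. The call for Usp18 changed with the processing. Slide row 1 held both hair loss arrays and Mutant097 normal skin, and row 2 held Mutant113 normal skin and wild type, so that the row overlaps with the title number and no row held both hair loss and wild type skin. With the row as a block, the estimate for mutant normal skin minus wild type was therefore that of Mutant113 normal skin alone, -2.00 (adjusted p = 0.0428). The estimate for hair loss minus wild type was this difference joined to that of hair loss from Mutant097 normal skin (-1.67), in all -3.67 (adjusted p = 0.0154), and is not a comparison made within a row. With the row as a block limma called 856 of 30417 probes for mutant normal skin minus wild type and 1332 for hair loss minus wild type. Sex-linked genes separated Mutant113 from wild type, so genotype, title number and sex-linked expression cannot be told apart in these estimates. Without Mutant113B1 the hair loss difference from wild type had an adjusted p of 0.0379, where limma called 708 of 30417 probes. Usp18 was low on Mutant113S1 and high on Wild001B1, where the median deviation over the list was 0.38 and 0.03. Socs1, an inhibitor of the Janus kinases, was 0.16 and 0.76 in hair loss skin, -0.29, 0.08, 0.60 and 0.61 in mutant normal skin, against 0.30 and 0.47 in wild type. Every Mutant113 value lay above every Mutant097 value, and within each number the hair loss value lay above both normal skin values. The Mutant113 normal skin mean was 0.71 higher than that of Mutant097 (SE 0.20, adjusted p = 0.216).

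**Figure D3:**
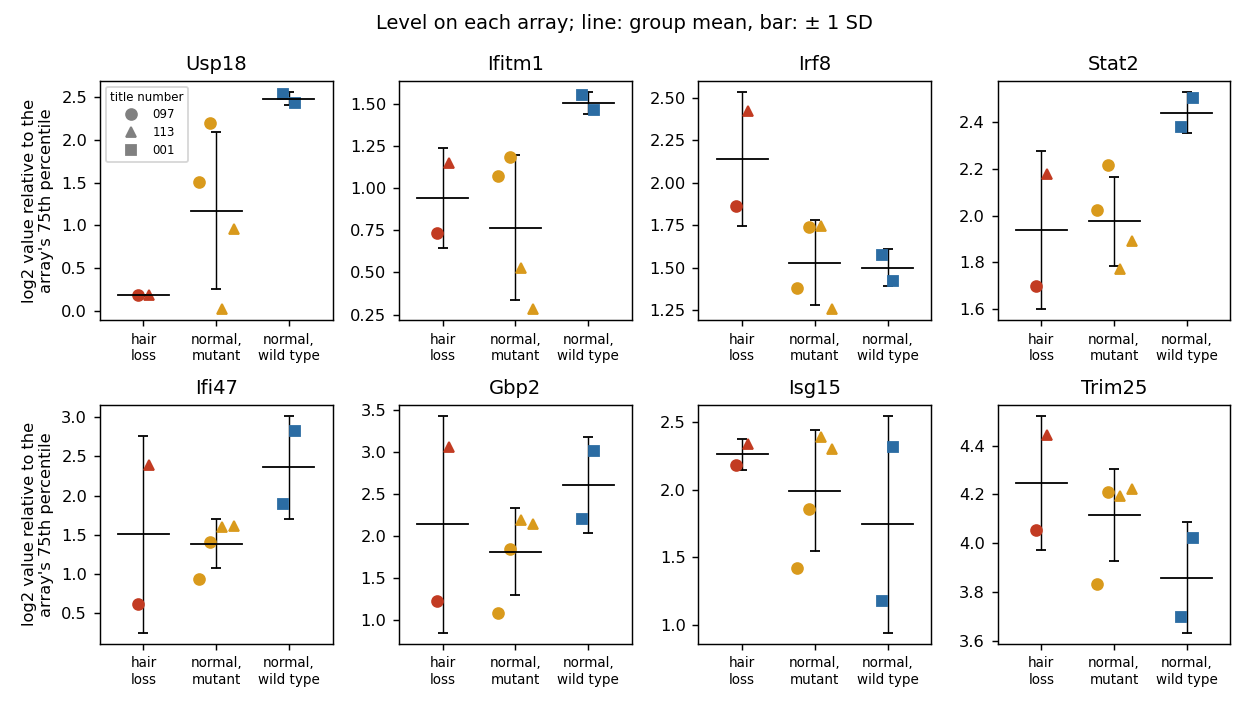
Level of 8 interferon response genes on each array (log2 relative to the 75th percentile of the array) by group, with marker shape for title number, the group mean (line) and 1 SD (bar; n = 2, 4 and 2). Usp18, Ifitm1 and Stat2 have every mutant value below both wild type values, and Irf8 has both hair loss values above the rest.

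The tetratricopeptide proteins of the IFIT family bind viral RNA and block its translation. Ifit1 was -2.90 and -1.71 in hair loss skin, -3.65, -2.42, -1.97 and -1.71 in mutant normal skin, against -2.96 and -0.17 in wild type. The wild type values were the lowest but 1 and the highest of the 8, and Wild001B1 was not well above background, so the difference of -0.87 from wild type had an SE of 0.83 (adjusted p = 0.621). Ifit2 was -2.50 and -1.73 in hair loss skin, -1.98, -1.62, -2.04 and -1.65 in mutant normal skin, against -2.24 and -1.30 in wild type. Ifit3 was 0.01 and 1.36, then 0.01, 0.59, 0.97 and 1.03, then 0.92 and 1.55 in the same order of groups. For both genes the groups overlapped, with Mutant097S1 at or near the bottom.

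The OAS proteins make the second messenger that activates RNase L, and Isg20 is an exonuclease. All 6 estimates of mutant normal skin against wild type were below 0, from -1.39 to -0.29. Isg20 was 2.01 and 2.16 in hair loss skin, 2.07, 2.26, 2.06 and 2.30 in mutant normal skin, against 2.52 and 2.58 in wild type. Its wild type values lay above all 6 mutant values, at -0.46 for hair loss (SE 0.19, adjusted p = 0.179) and -0.38 for mutant normal skin (SE 0.16, adjusted p = 0.29). Oas1a was 2.00 and 2.72 in hair loss skin, 1.54, 2.37, 2.35 and 2.44 in mutant normal skin, against 2.11 and 2.81 in wild type, with overlap of all groups. Oas2 was 0.70 and 1.56, then 0.48, 1.56, 1.31 and 1.58, then 1.54 and 1.80, and also overlapped. Oasl1, an OAS-like protein without synthetase activity, was -0.74 and -0.35 in hair loss skin, -1.31, -0.10, -0.36 and 0.09 in mutant normal skin, against 0.03 and 0.96 in wild type. Hair loss skin lay below wild type without overlap (difference -1.04, SE 0.49, adjusted p = 0.236). Oas3 had an estimate of -1.39 (SE 0.53) between mutant normal skin and wild type, but its probe was well above background on Mutant113S1 (-3.43) and Wild001A1 (-3.24) alone, so this is not a measured difference on both sides. Oasl2 had a difference of -0.55 (SE 0.56).

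Ifitm1, from the group named membrane restriction factors, was the single listed gene that was called with the main processing. Ifitm1, which blocks virus fusion at the cell surface, was 0.73 and 1.15 in hair loss skin, 1.07, 1.18, 0.53 and 0.28 in mutant normal skin, against 1.55 and 1.46 in wild type. All 6 mutant values lay below both wild type values, and the Mutant113 normal skin values lay below those of Mutant097. Ifitm1 was lower in Mutant113 normal skin than in wild type by a log2 difference of -1.10 (SE 0.18, adjusted p = 0.042), where limma called 3.26% of all probes. With no filter on low signal the adjusted p was 0.134. In all 4 mutant normal skin samples together the difference was -0.74 (SE 0.29, adjusted p = 0.255). Sex-linked genes also separated Mutant113 from wild type, so genotype, title number and sex-linked expression cannot be told apart in the Mutant113 comparison. Within Mutant113, the hair loss array was 0.75 above normal skin (SE 0.22, adjusted p = 0.648), and within Mutant097 it was -0.40 (SE 0.22, adjusted p = 0.524).

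The other membrane factors showed smaller differences. Ifitm3, which acts in endosomes, was 4.01 and 4.57 in hair loss skin, 4.28, 4.65, 4.20 and 4.28 in mutant normal skin, against 4.50 and 5.01 in wild type, with overlap. Bst2 (tetherin), which holds budding virions on the cell, was 2.24 and 2.73, then 1.71, 2.16, 2.63 and 2.46, then 2.37 and 2.43. As for Socs1, the Mutant113 normal skin mean of Bst2 was above that of Mutant097, by 0.61 (SE 0.21, adjusted p = 0.274). Ifi27 was the steadiest of the 37 genes, at 5.52 and 5.70 in hair loss skin, 5.67, 5.76, 5.63 and 5.69 in mutant normal skin, against 5.65 and 5.84 in wild type, a range of 0.33 over the 8 arrays. Rsad2 (viperin) and Rtp4 had differences of 0.10 (SE 0.33) and -0.60 (SE 0.52) between mutant normal skin and wild type.

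The GTPases varied most by array as a group. The guanylate-binding proteins (Gbp2, Gbp3) and the immunity-related GTPases (Igtp, Irgm1, Iigp1, Ifi47) are strong interferon gamma targets that attack the vacuoles of intracellular pathogens. Their median deviation was -0.85 on Mutant097S1, -0.75 on Mutant097B1, 0.74 on Mutant113S1 and 0.92 on Wild001A1, and between -0.14 and 0.13 on the other 4 arrays. Gbp2 was 1.23 and 3.05 in hair loss skin, 1.08, 1.85, 2.19 and 2.14 in mutant normal skin, against 2.20 and 3.02 in wild type. Its hair loss values spanned nearly the whole range of the 8 arrays. Ifi47 was 0.61 and 2.40, then 0.93, 1.40, 1.60 and 1.61, then 1.89 and 2.83, and Mutant113S1 lay between the wild type values. Igtp was 0.88 and 2.61 in hair loss skin, 1.27, 1.88, 2.03 and 1.84 in mutant normal skin, against 2.13 and 3.16 in wild type. For Gbp2, Ifi47 and Igtp the mutant normal skin values all lay below both wild type values, with differences of -0.79 (SE 0.54), -0.98 (SE 0.50) and -0.89 (SE 0.50) and adjusted p of 0.487, 0.359 and 0.403. Iigp1 was -1.02 and 0.34 in hair loss skin, -1.43, -0.69, -0.47 and -0.65 in mutant normal skin, against -0.71 and 0.39 in wild type, with overlap. A second Iigp1 probe gave -1.26 for mutant normal skin minus wild type against -0.65 for the chosen one. Gbp3 and Irgm1 had differences of -0.60 (SE 0.46) and -0.62 (SE 0.41).

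In the last group, Isg15, a ubiquitin-like protein joined to other proteins during the response, and Trim25, the ligase that activates RIG-I, had estimates above 0 in the mutants. Isg15 was 2.18 and 2.34 in hair loss skin, 1.42, 1.86, 2.39 and 2.30 in mutant normal skin, against 1.18 and 2.31 in wild type, with overlap of all groups. Trim25 was 4.05 and 4.44 in hair loss skin, 3.83, 4.21, 4.19 and 4.22 in mutant normal skin, against 3.70 and 4.02 in wild type. Both hair loss values lay above wild type (difference 0.39, SE 0.24, adjusted p = 0.345). Parp14, an ADP-ribosyltransferase, went the other way, at 0.85 and 1.88, then 1.37, 1.94, 1.37 and 1.61, then 2.06 and 2.33, with all 6 mutant values below both wild type values. Its differences from wild type were -0.83 (SE 0.36, adjusted p = 0.202) for hair loss and -0.62 (SE 0.31, adjusted p = 0.35) for mutant normal skin. Xaf1, Ifi35 and Ifi44 had differences of -0.22 (SE 0.35), -0.27 (SE 0.26) and -0.33 (SE 0.54) between mutant normal skin and wild type. A second Xaf1 probe gave the opposite sign, at 0.53. For the other 6 genes whose second probe was also tested (Ddx58, Oas1a, Isg20, Irgm1, Iigp1 and Isg15), both probes gave the same sign in the 3 group comparisons.

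Within the title numbers, the hair loss array read above both normal skin arrays for most of the list in Mutant113, and between or below them in Mutant097. In Mutant097 the hair loss array was lower than the mean of the 2 normal skin arrays for 25 of 37 genes, with a median difference of -0.24 against -0.03 over all probes. This direction rested on Mutant097A1: against that array alone it was lower for 31 of 37 genes (median -0.56), and against Mutant097B1 alone it was higher for 21 (median 0.035). It lay below both arrays for 16 genes, against 40.6% of all probes, and above both for 6, against 34.7%. In Mutant113 the hair loss array was higher than the mean for 32 of 37, with a median of 0.31 against 0.03 over all probes. It was higher than Mutant113B1 alone for 35 genes and than Mutant113A1 alone for 31, and lay above both for 29, against 39.4% of all probes, and below both for 0, against 33.0%. Measured against the means, 22 genes were lower in Mutant097 and higher in Mutant113, 2 the reverse (Isg15 and Rsad2), 10 higher in both (among them Irf7, Irf8, Socs1 and Trim25) and 3 lower in both (Isg20, Oasl1 and Usp18). The GTPases had the widest split, with medians of -0.40 in Mutant097 and 0.78 in Mutant113. Each number has a single hair loss array, which is assumed here to vary like the other groups. In Mutant097, 0 listed genes were called against 0.628% of all probes, and 3 (Ifih1, Parp14 and Usp18, all lower) had an unadjusted p under 0.05 against 13.0%. In Mutant113, 0 were called against 0.00329%, and 2 (Ifitm1 and Irf8, both higher) had an unadjusted p under 0.05 against 4.8%.

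The difference between these effects was tested directly. The hair loss effect was larger in Mutant113 than in Mutant097 for 30 of 37 genes, with a median difference of 0.62 against 0.04 over all probes, and it was above 0 for 6 of 6 GTPases, 5 of 5 transcription factors and 3 of 3 sensors. Limma called 0 of the 37 genes against 0.0% of all probes, with a smallest adjusted p of 0.367 (Ifitm1, 1.14, SE 0.31). Unadjusted p was under 0.05 for 4 genes, all above 0 (Ifih1 1.18, Ifitm1 1.14, Parp14 1.19 and Stat2 0.77), against 9.5% of all probes. With Mutant097B1 alone as the normal skin of Mutant097 the median was 0.41 (26 of 37 above 0), and with Mutant097A1 alone it was 0.87 (35 of 37). Macrophage and monocyte markers were above 0 for 4 of 6 in the same test, with a median of 0.72. The summed level of the skeletal muscle markers was 383 on Mutant097S1 against 392 and 305 in its normal skin, and 124 on Mutant113S1 against 657 and 746. The part of either list in these differences was not tested.

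**Figure D4:**
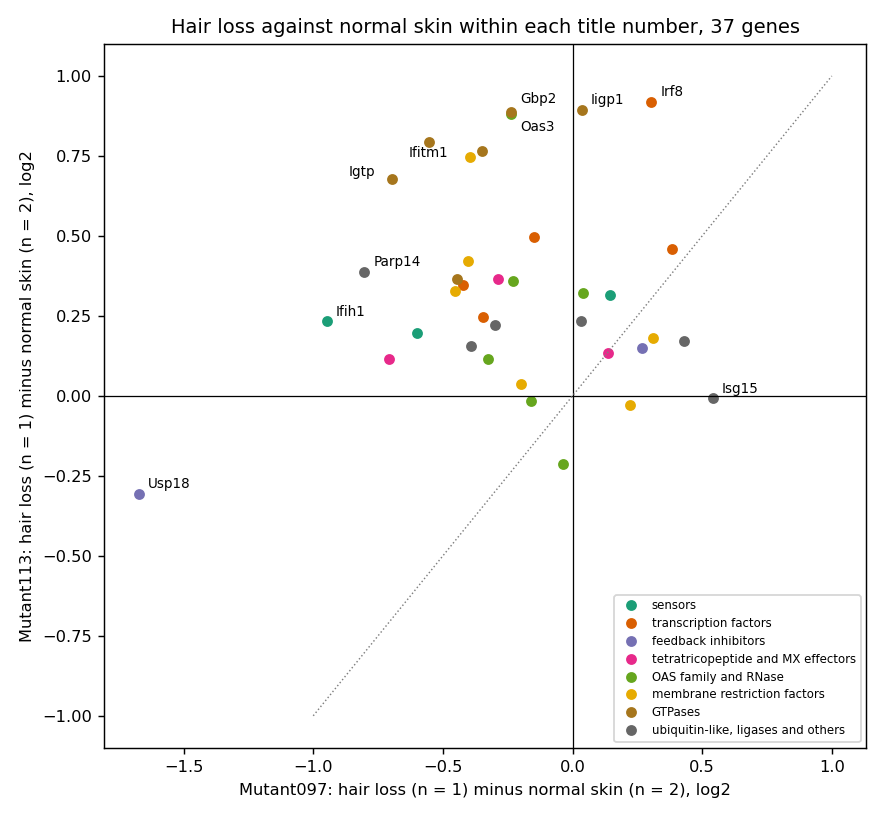
Hair loss minus normal skin within Mutant113 (vertical axis, log2) against the same within Mutant097 (horizontal axis), for 37 genes coloured by role, with 1 hair loss and 2 normal skin arrays per number. The upper left quadrant holds 22 genes, the upper right 10, the lower left 3 and the lower right 2; the dotted line marks equal effects.

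The numbers were also compared in normal skin, without hair loss. Mutant113 normal skin was higher than that of Mutant097 for 26 of 37 genes, with a median difference of 0.42 against -0.05 over all probes. Limma called 0 genes against 0.266% of all probes, and 4 genes had an unadjusted p under 0.05 against 15.8%. These were Bst2 (0.61) and Socs1 (0.71), higher in Mutant113, and Ifitm1 (-0.72) and Usp18 (-1.36), lower. Against wild type, Mutant097 normal skin had 35 of 37 estimates below 0 and a median of -0.51, with 0 genes called against 0.999% and 8 at an unadjusted p under 0.05 (Gbp2, Ifi47, Ifit3, Igtp, Irf1, Irf7, Irgm1 and Oas3, all lower) against 20.5%. Mutant113 normal skin, set against the same wild type samples, had 28 of 37 below 0 and a median of -0.27. Ifitm1 was the 1 gene called, against 3.26% of all probes. Unadjusted p was under 0.05 for 4 genes (Ifitm1, Parp14, Stat2 and Usp18, all lower) against 19.5%. In this comparison sex-linked expression overlaps with genotype and title number.

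Normal skin samples lettered A read higher than those lettered B. The difference, a comparison added after the values were seen, was above 0 for 37 of 37 genes in Mutant097 (median 0.54), 33 of 37 in Wild001 (median 0.41) and 26 of 37 in Mutant113 (median 0.06). Over all probes the shares above 0 were 52.4%, 50.6% and 47.9%. In all 3 numbers A was higher for 25 of the 37 genes, against 12.2% of all probes, and lower for 0, against 10.5%. Limma with the number as a block called 0 of the 37 genes against 0.0% of all probes, and 6 had an unadjusted p under 0.05 against 5.01%. Ifit1 differed by 1.24 in Mutant097 and by 2.79 in Wild001, where its probe was not well above background on Wild001B1. The labels do not say what the letters stand for.

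**Figure D5:**
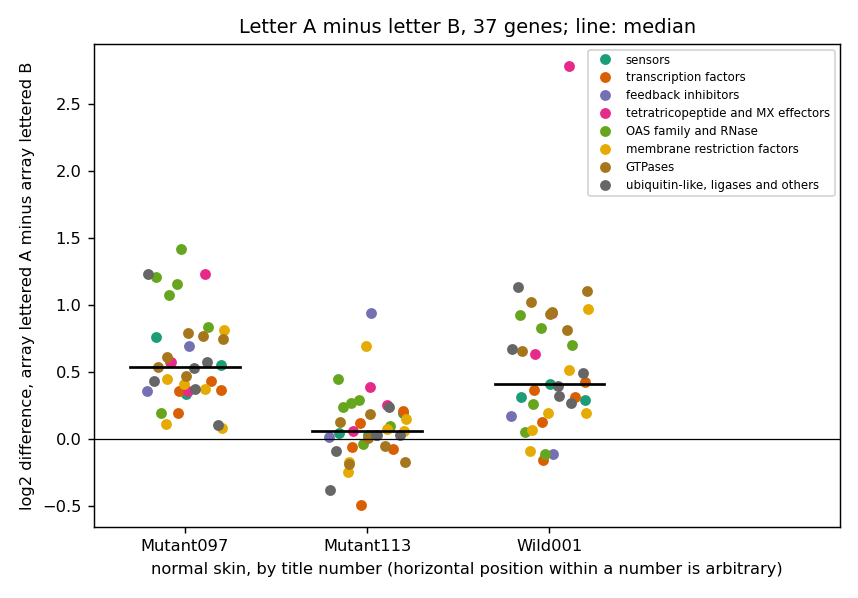
Log2 difference, array lettered A minus array lettered B, in the normal skin of Mutant097, Mutant113 and Wild001 (1 array each per number) for 37 genes coloured by role, with the median as a line. The medians are 0.54, 0.06 and 0.41.

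The other genes of the interferon pathway also had estimates mostly below 0 against wild type, without a call. Of 71 listed, 60 were tested. Limma called 0 of them in each of the 3 group comparisons. Of all probes it called 0.0% (hair loss minus mutant normal skin), 0.694% (mutant normal skin minus wild type) and 1.42% (hair loss minus wild type). Unadjusted p was under 0.05 for 2 (hair loss against mutant normal skin, 5.2% of all probes) and 7 (hair loss against wild type, 24.8%). For mutant normal skin minus wild type, 49 of the 60 were below 0, with a median of -0.30 against -0.04 over all probes. Unadjusted p was under 0.05 for 12 of them, 10 lower and 2 higher, against 17.2% of all probes. Of the 8 ligands matched, Ifnb1, Ifna2, Ifna4 and Ifne had no array well above background, and 3 ligands were tested. Ifnl3, a type III interferon, was well above background on 8 arrays, Ifng on 6 and Ifnk on 4. Ifnl3 had a difference of -0.67 (SE 0.24, adjusted p = 0.229). Ifng, the type II interferon, had -0.76 (SE 0.67) and Ifnk, a keratinocyte interferon, -0.18 (SE 0.56).

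The nucleic acid sensors outside the list were the pathway group furthest from 0. All 7 tested had estimates below 0 in mutant normal skin, with a median of -0.73 and no call, against 0.694% of all probes called. Tlr9, the endosomal DNA sensor, was 2.20 and 1.84 in hair loss skin, 2.49, 2.36, 2.02 and 2.10 in mutant normal skin, against 3.65 and 2.99 in wild type. Its 6 mutant values lay below both wild type values, with differences of -1.30 (SE 0.29, adjusted p = 0.0678) for hair loss and -1.08 (SE 0.25, adjusted p = 0.118) for mutant normal skin. Adar, the RNA-editing deaminase, had -0.73 (SE 0.19, adjusted p = 0.142) and Sting1, the adaptor of cytosolic DNA sensing, -0.61 (SE 0.22, adjusted p = 0.236) for mutant normal skin. The receptors and negative regulators were nearer to 0, with medians of -0.11 and 0.12. Ifnar2, Ifngr1 and Ifngr2 had differences of -0.43 (SE 0.20), -0.21 (SE 0.21) and 0.05 (SE 0.15), and Socs3, Ptpn6 and Pias1 0.41 (SE 0.37), 0.04 (SE 0.17) and 0.12 (SE 0.16). Of the 11 kinases and signalling genes, 8 were below 0 with a median of -0.12, and Jak1, Jak2 and Irf3 had differences of -0.04, -0.06 and 0.14. Among 28 further interferon targets 26 were below 0, with a median of -0.47. Sp110, Ifi27l2a and Ifi204, nuclear and mitochondrial proteins of the response, had 0.31, -0.54 and -0.53.

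The ISRE core in the promoter was set beside the differences. The median difference between mutant normal skin and wild type was -0.43 for the 16 genes with the core and -0.35 for the 14 without. For the hair loss effect within Mutant097 the medians were -0.26 and -0.19, and within Mutant113 they were 0.33 and 0.24. These medians are a description and were not tested.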

How the data were processed

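Skin RNA of 8 mouse samples was measured on Agilent single-colour arrays, 1 array per sample on 1 slide. Per the submitters' processing notes and the file headers, Agilent Feature Extraction 11.5.1.1 made the spot intensity values, corrected by the authors for background and spatial trend within each array. The authors' deposited matrix holds log2 values that equal this log2 intensity minus 1 constant per array. Here, outlier and control spots were left out, spots of a probe were averaged, and each array's 75th percentile was subtracted. Of 55603 probes, 30417 were well above background on at least 2 arrays and were tested, and 19195 of these had 1 symbol through RefSeq accessions.

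Linear models were fitted with limma 3.58.1 (R 4.3.3) and tested two-sided, with Benjamini-Hochberg adjustment over all tested probes. A model of the 3 groups had 5 residual and 2.71 prior degrees of freedom. A model with the title number as a block among the mutants gave the paired comparison. A model with 1 mean per group and number gave the comparisons within and between numbers. Models were tested on simulated data. The number of arrays limits the precision.

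The members and lists were chosen with earlier results of these data known. Values on every array are given for called genes, for the 6 largest differences per group or paired comparison among genes well above background throughout the higher group, and for the 3 brightest genes per role. The other pathway genes named are the 3 brightest per list. The alternatives were normexp background correction, quantile normalization, the deposited matrix, other filters on low signal, the mean over probes, the number or slide row as a block, no moderation, and leaving out each array. Further alternatives were 1 mean per group and number, and each mutant number alone. The scanner files read here held no mean signal, so normexp used the median signal. Title numbers were shared by hair loss and normal skin of the mutants, and the difference between the numbers in hair loss skin correlated with that in normal skin across probes (r = 0.13, 30417 probes, which are not independent). With only 2 numbers this does not settle the pairing.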

Additional observations from a re-analysis of the deposited data

Results flagged for a closer look

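In the 4 samples of mutant normal skin, 1 value lay far from the other 3 for 3 of the 28 genes given array by array. Ifih1 was highest on Mutant097A1, at 1.32. Oas1a was lowest on Mutant097B1, at 1.54. Trim25 was lowest on Mutant097B1, at 3.83. Chance alone flags about 1 in 20 such groups.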

How the results depend on the processing

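Over the 8 comparisons, 97 alternative counts of called genes were computed, and 90 were unchanged. Between mutant normal skin and wild type, 1 gene was called with Mutant113 alone (Ifitm1), against 0 with the main processing. Mutant113 alone called 991 of 30417 probes. With the slide row as a block 1 gene (Usp18) was called in this comparison, against 856 of 30417 probes. Only Mutant113 normal skin shares a row with wild type there, so that both settings rest on the same samples. The row block also called 1 gene (Usp18) between hair loss and wild type, which share no row, against 1332 of 30417 probes. For Mutant113 normal skin minus wild type the count of 1 was 0 with no filter and 2 with normexp on the median signal (an alternative chosen after seeing the data) or with probes well above background on all 8 arrays (Ifitm1 and Usp18). These settings called 476 of 55603, 1167 of 30417 and 806 of 23018 probes, in the same order. Leaving out 1 array gave 0 to 1 called genes between hair loss and wild type and 0 in the other group comparisons.

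The median difference over the list ranged from -0.34 to 0.48 for hair loss minus mutant normal skin when 1 array was left out, from -0.24 to 0.31 in the paired comparison, from -0.78 to 0.039 for hair loss minus wild type and from -0.66 to -0.13 for mutant normal skin minus wild type. With the title number as a replicate block the median for hair loss minus mutant normal skin was 0.06, which is equal to the value without it by design, and the paired block changed no call. Within the numbers, leaving out 1 normal skin array (added after seeing the data) gave medians of -0.56 to 0.035 in Mutant097, 0.27 to 0.34 in Mutant113 and 0.41 to 0.87 for the difference between them. Without 1 hair loss array the sign turned for 4 of the genes with the largest differences. For hair loss minus mutant normal skin, leaving out single arrays gave -0.59 to 1.24 for Gbp2, -0.84 to 0.12 for Ifih1 and -0.21 to 1.15 for Iigp1, and Mutant097 alone gave -0.24 for Gbp2 and Mutant113 alone 0.23 for Ifih1. In the paired comparison the ranges were -0.24 to 0.89 for Gbp2 and -0.95 to 0.23 for Ifih1. For hair loss minus wild type the range for Ifi47 was -1.75 to 0.035. The cause was not tested. With no filter the median over all probes moved to -0.30 for mutant normal skin minus wild type, and no alternative scaling moved it by more than 0.1. Normexp on the mean signal was not run.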
